A study of Canis lupus familiaris with 6 samples.

Results

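The small leucine-rich proteoglycans were examined in 6 cultures established from osteosarcoma, a malignant tumour of bone, of dogs. Of 10 family genes, 9 (ASPN, ECM2, OMD, OGN, DCN, LUM, BGN, FMOD and PRELP) had a probe set that the array annotation assigns to that gene alone, and PODN is not analysed here. They held 15 of the 42924 non-control probe sets, among 15115 genes named on the array. The family was selected on differences between the groups already seen on these arrays, above all those of ASPN, OMD and FMOD, so the group differences of its members are given below as a description and not as a test. Tumours grew after transplant into mice from UWKOS1, UWKOS3 and UWKOS7 (tumorigenic, n = 3) but not from UWKOS2, UWKOS6 or UWKOS8 (non-tumorigenic, n = 3). All lines were kept in the same serum-containing medium and harvested before confluence, with no agent named, and RNA came from the cultures and not from mice. The study had no reference line or other control, and the labels give neither the mouse strain nor the age of the dogs. Each line was measured on 1 array, so p-values weigh the spread between lines, and the order of lines within a group has no error of its own.

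Small leucine-rich proteoglycans are secreted proteins whose core is a curved stack of leucine-rich repeats, many of them carrying chondroitin, dermatan or keratan sulfate chains. They coat collagen fibrils, set the thickness and spacing of the fibrils, and bind growth factors such as TGF-beta. In bone, DCN and BGN belong to the matrix laid down by osteoblasts and OMD to its mineralised part. ASPN, OMD, OGN and ECM2 lie next to each other in the RefSeq gene order of the dog assembly UU_Cfam_GSD_1.0 and are called the ASPN run here. LUM and DCN are likewise neighbours.

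Array medians lay between 6.03 and 6.05 on the log2 scale. The difference between the 3 prime and 5 prime probe sets of GAPDH, a measure of RNA integrity, was 0.86 to 1.07 (log2) in the tumorigenic lines and 0.95 to 1.98 in the others, and that of ACTB was 0.64 to 1.11 and 0.82 to 2.86. UWKOS6 and UWKOS8 had the higher values of both, while UWKOS2 lay within the tumorigenic range. Among listed osteoblast markers, the collagen gene COL1A2 had means of 13.60 and 14.52 in the tumorigenic and non-tumorigenic lines. SPARC, a collagen-binding bone protein, had 12.75 and 13.63. The osteoblast transcription factor RUNX2 was near the dim-signal limit described below, at 6.27 and 6.05, and the mineralisation genes ALPL, IBSP and SPP1 were below it on average. Of the other listed osteoblast markers, BGLAP had means of 5.87 and 6.31 and DLX5 of 6.56 and 7.17, in the same order of groups. PTH1R and PHEX were below the limit on average, and SPP1 reached 9.76 in UWKOS1. Collagen and SPARC RNA were thus bright in both groups, while the other listed osteoblast markers had lower means. Whether the lines kept an osteoblast identity was not tested.

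All 15 family probe sets were lower on average in the tumorigenic lines, by 0.59 to 6.87 on the log2 scale with a median of -1.88, where the median over all tested probe sets was 0.03. A probe set was tested if its average signal reached 6.07, the median of all probe sets and called the dim limit here, as 21462 did. Of the family, 10 probe sets entered this fit and 4 were called lower by limma, those of ASPN and OMD and 2 of ECM2, while 4.74% of all tested probe sets were called lower. In all 4 the tumorigenic mean lay under the dim limit, so they entered through the lines in which they were high, and the members' choice had used this contrast, so nothing is read from the count. It was 1 without UWKOS2, 1 without UWKOS6, 2 without UWKOS3, 6 without UWKOS7 and 1 with the GAPDH ratio as a covariate. The calls over all 21462 probe sets, in either direction, moved too. They numbered 2580 with all lines and 1344, 51, 548, 3130 and 27 in those 5 fits, in the same order. ASPN was called in each of the 6 fits that left out a single line. The family was selected on its difference among others, and its groups lay 5.61 apart, so nothing is read from this either. In 13 of the 15 probe sets, and in 8 of the 10 tested, every tumorigenic line was below every other line, which held for 16.9% of all tested probe sets in that direction. Without the limit on dim probe sets, 8 of the 15 were called lower, against 1.99% of all probe sets. Fewer producing cells and less RNA per cell cannot be told apart in such cultures.

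ASPN (asporin), a collagen-binding protein that lacks a glycosaminoglycan chain and can restrain TGF-beta, had the widest separation of the family. Its log2 signal was 5.83 in UWKOS1, 4.01 in UWKOS3 and 4.43 in UWKOS7, against 11.81 in UWKOS2, 11.44 in UWKOS6 and 11.64 in UWKOS8. The non-tumorigenic lines lay within 0.37 of each other, and the lowest of them exceeded the highest tumorigenic line by 5.61. The difference in means was -6.87 (SE 0.46, n = 3 and 3). Since the tumorigenic values may sit at background, the size of this difference is uncertain.

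OMD (osteomodulin), a keratan sulfate proteoglycan of mineralised matrix, followed ASPN in size. It read 6.19 in UWKOS1, 3.22 in UWKOS3 and 6.42 in UWKOS7, and 9.58 in UWKOS2, 9.87 in UWKOS6 and 9.97 in UWKOS8. The groups did not overlap, and UWKOS3 stood well below the other tumorigenic lines. The means were 5.28 ± 1.79 (SD, n = 3) and 9.81 ± 0.21 (SD, n = 3), a difference of -4.53 (SE 0.83).

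ECM2, a leucine-rich matrix protein of adipose and female reproductive tissues, was measured by 3 probe sets. The brightest read 5.96 in UWKOS1, 5.11 in UWKOS3 and 6.93 in UWKOS7, against 9.62 in UWKOS2, 9.33 in UWKOS6 and 8.40 in UWKOS8. The groups stayed apart on all 3 probe sets, whose differences were -3.12 (SE 0.52), -1.88 (SE 0.31) and -3.81 (SE 0.33, from the fit without the dim limit). UWKOS7 was the highest tumorigenic line and UWKOS8 the lowest non-tumorigenic line on each of them. These probe sets share a gene and are not replicates, and their tumorigenic means lay under the dim limit, so their sizes are uncertain as for ASPN.

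OGN (osteoglycin, or mimecan), a keratan sulfate proteoglycan found in bone and connective tissue, was the member of the run whose groups overlapped. It read 6.40 in UWKOS1, 7.16 in UWKOS3 and 10.77 in UWKOS7, and 12.37 in UWKOS2, 10.89 in UWKOS6 and 10.27 in UWKOS8. UWKOS7 thus exceeded UWKOS8 and came within 0.41 of the non-tumorigenic mean, while the other tumorigenic lines lay more than 4 below it. The difference in means was -3.07 (SE 1.17), and OGN was not called with all 6 lines.

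**Figure D1:**
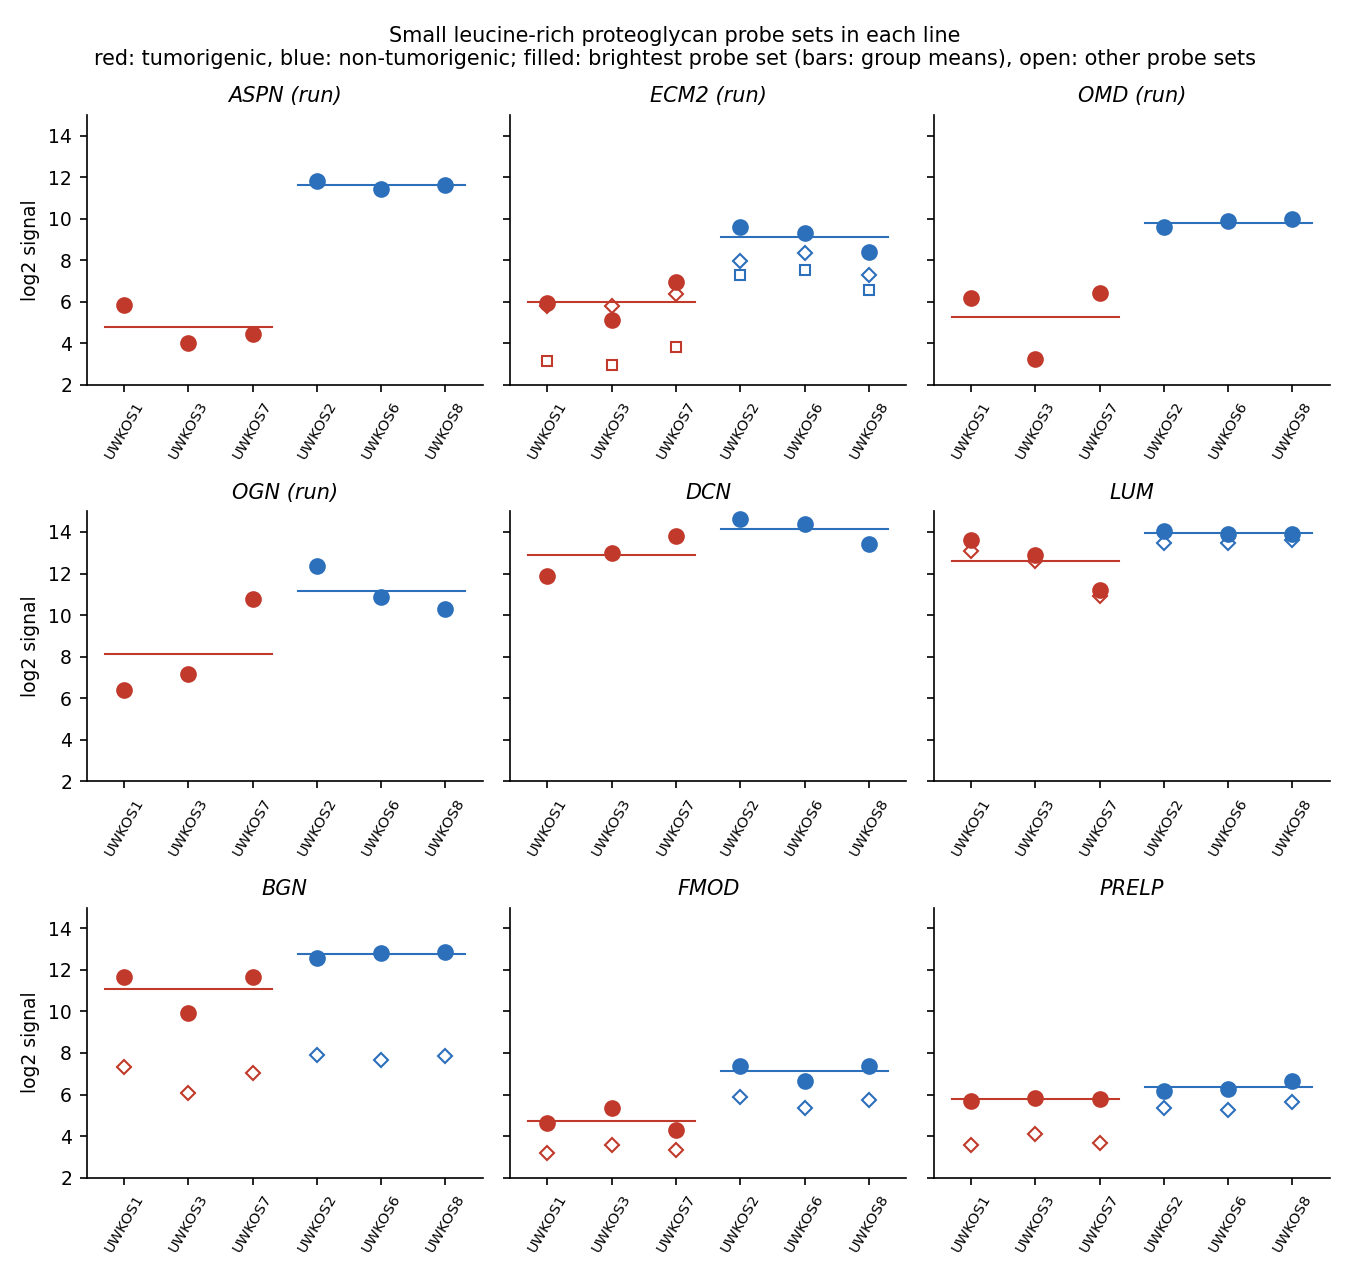
Log2 signal (y axis) of every family probe set in each line (x axis), 1 panel per gene; red points are tumorigenic and blue points non-tumorigenic lines, filled points the brightest probe set with bars at its group means, and open points the other probe sets. ASPN and OMD separate the groups by at least 3.16 between the nearest lines, whereas OGN and DCN overlap because of UWKOS7 and UWKOS8.

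DCN (decorin), which binds collagen I and TGF-beta, read 11.90 in UWKOS1, 12.99 in UWKOS3 and 13.80 in UWKOS7, and 14.62 in UWKOS2, 14.39 in UWKOS6 and 13.42 in UWKOS8. Its lines stood in the same order as those of OGN, from UWKOS1 up to UWKOS2, with UWKOS7 above UWKOS8. The groups overlapped, with a difference of -1.24 (SE 0.54), which was -0.74 without UWKOS1. Decorin RNA was bright in every line, the least of its values being 11.90.

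LUM (lumican), a keratan sulfate proteoglycan and the gene next to DCN, did not follow DCN among the tumorigenic lines. Its brightest probe set read 13.63 in UWKOS1, 12.90 in UWKOS3 and 11.20 in UWKOS7, against 14.03, 13.92 and 13.90 in UWKOS2, UWKOS6 and UWKOS8. UWKOS7 was lowest for LUM and highest of its group for DCN, and UWKOS1 the reverse. The groups did not overlap, but by a gap of 0.27, and the difference was -1.37 (SE 0.58). The other LUM probe set gave the same order of the tumorigenic lines and a difference of -1.33 (SE 0.53). Without UWKOS7 the LUM differences were -0.68 and -0.69.

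BGN (biglycan), a relative of decorin in bone and cartilage matrix, read 11.64 in UWKOS1, 9.91 in UWKOS3 and 11.67 in UWKOS7, and 12.59, 12.83 and 12.88 in UWKOS2, UWKOS6 and UWKOS8. UWKOS3 was the low line here, as for OMD. The differences of its 2 probe sets were -1.69 (SE 0.48) and -0.98 (SE 0.33), with no overlap on either. Without UWKOS3 the BGN differences were -1.11 and -0.62. None of DCN, LUM and BGN was called in the fit described above, which does not show that they were equal in the groups, and the brighter BGN probe set was called with the upper-quartile limit and with array weights.

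FMOD (fibromodulin), which regulates collagen fibril assembly, and PRELP, which binds basement membrane perlecan and collagen, were dim. The brighter FMOD probe set read 4.62 in UWKOS1, 5.33 in UWKOS3 and 4.28 in UWKOS7, and 7.37, 6.64 and 7.39 in UWKOS2, UWKOS6 and UWKOS8. Its groups did not overlap, and its other probe set showed the same, with differences of -2.39 (SE 0.33) and -2.31 (SE 0.18) in the fit without the dim limit. The brighter PRELP probe set ranged from 5.67 to 5.84 in the tumorigenic lines and from 6.18 to 6.63 in the others, a difference of -0.59 (SE 0.15). The dimmer PRELP probe set differed by -1.62 (SE 0.18), so the size for PRELP depends on the probe set. All 4 of these probe sets lay below the dim limit on average.

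The ASPN run differed more between the groups than the other 5 measured members. With each gene taken by its brightest probe set, the mean of the 4 run genes was 6.10, 4.87 and 7.14 in UWKOS1, UWKOS3 and UWKOS7, and 10.85, 10.38 and 10.07 in UWKOS2, UWKOS6 and UWKOS8. The mean of the other 5 genes was 9.49, 9.40 and 9.35, and 10.96, 10.81 and 10.84, in the same order of lines. Within each group the mean of the other members was nearly the same in every line (SD 0.07 and 0.08, n = 3 each). The run mean had an SD of 1.13 among the tumorigenic and 0.39 among the non-tumorigenic lines. Single other members were not that even, since their deviations cancelled in the mean. Among the tumorigenic lines the SD was 0.96 for DCN, 1.25 for LUM, 1.01 for BGN, 0.54 for FMOD and 0.09 for PRELP. It was 0.95 for ASPN, 0.91 for ECM2, 1.79 for OMD and 2.33 for OGN. The group difference was -4.40 for the run and -1.46 for the others, and their gap was -2.94, against a pooled SD of 0.85 for the gap within groups. It ranged from -3.52 without UWKOS7 to -2.37 without UWKOS3. Median differences were -3.82 over the run genes and -1.37 over the others. DCN and LUM reached 14.62 and 14.03, where the highest value on the arrays was 14.83, and FMOD and PRELP lay below the dim limit. The tumorigenic means of ASPN, OMD and ECM2 also lay under that limit. The size of the gap is therefore uncertain, and the part of the signal scale in it was not tested. No test is given, since the members were chosen with these differences known.

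Which tumorigenic line was lowest changed from gene to gene. Among the 9 brightest probe sets UWKOS3 was the lowest tumorigenic line for 4, UWKOS1 for 3 and UWKOS7 for 2, and UWKOS7 was the highest for 5. Relative to the non-tumorigenic mean, UWKOS7 was at -7.20 for ASPN but -0.41 for OGN, although both lie in the run. UWKOS3 was at -6.59 for OMD and -4.02 for OGN. UWKOS1 was at -4.77 for OGN but -0.32 for LUM. The SD was larger in the tumorigenic than in the non-tumorigenic lines for 11 of the 15 family probe sets (73.3%). Among all tested probe sets the share was 63.2%. The 15 include 5 below the dim limit, which the share of tested probe sets leaves out, so the shares are not like for like.

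**Figure D2:**
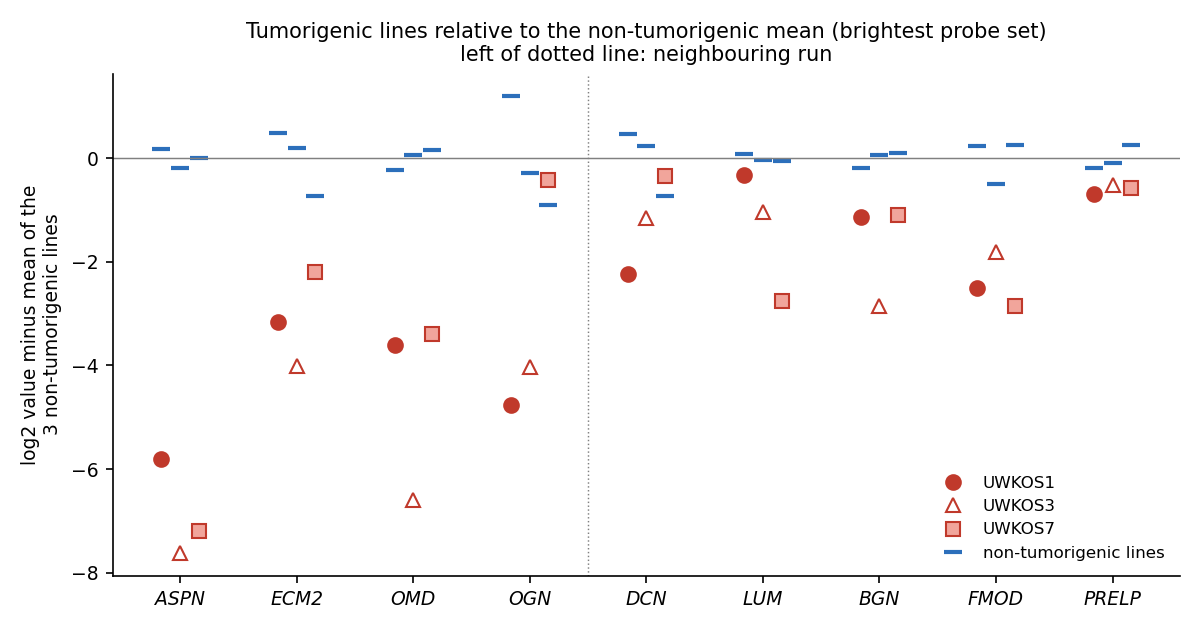
Log2 value of the brightest probe set of each gene (x axis) minus the mean of the 3 non-tumorigenic lines (y axis); red symbols are the tumorigenic lines, blue dashes the non-tumorigenic lines, and the dotted line parts the ASPN run from the other members. UWKOS7 lies at -7.20 for ASPN and -0.41 for OGN, and it is the lowest line for LUM at -2.75.

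Among the 12 protein-coding genes next to the run, 6 on each side, 9 had a probe set and 4 were tested. Of these 4, 0 were called by limma, with a median difference of -0.14, while 7.30% of all genes, each by its brightest tested probe set, were called higher and 4.52% lower. CENPP, a centromere protein gene whose span encloses the whole run in that assembly, was higher on average in the tumorigenic lines, at 10.34, 8.82 and 10.21 in UWKOS1, UWKOS3 and UWKOS7 against 8.69, 8.30 and 8.94 in the others. Its difference of 1.15 (SE 0.43) did not pass (limma adjusted p = 0.127), although without UWKOS3 it did, and its other probe set differed by 0.36. The isoleucyl-tRNA synthetase gene IARS1 differed by -0.78 (limma adjusted p = 0.142) on its brightest probe set, by 0.48 on the next and by 0.10 on the mean of its probe sets, MFSD14B by 0.24 (limma adjusted p = 0.434) and MZF1 by -0.52 (limma adjusted p = 0.122). SUSD3 (-0.18), FGD3 (-0.10), BICD2 (0.12), IPPK (0.64) and ZNF484 (0.10) lay below the dim limit.

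**Figure D3:**
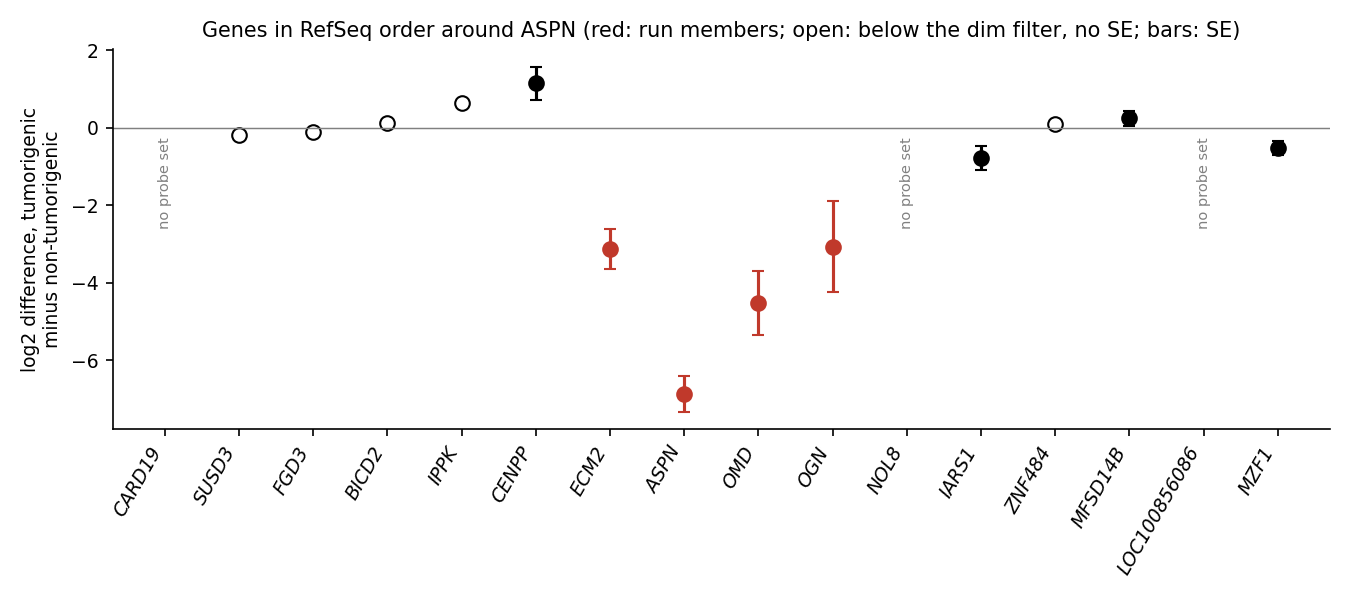
Difference between tumorigenic and non-tumorigenic lines on the log2 scale (y axis) for genes in RefSeq order around ASPN (x axis, not to scale); red points are the run, black points its flanks, bars are SE, and open points lay below the dim limit and have no bar. The 4 run genes lie between -6.87 and -3.07 and the measured flanks between -0.78 and 1.15.

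Over all 4 places in the genome that hold measured members, 28 flanking genes had a probe set, 18 were tested and 0 were called by limma, while 8 of the 18 had an unadjusted p under 0.05, as did 31.5% of all genes tested. The count was 1 without the dim limit (KERA), 1 with the stricter limit (SLC6A8), 1 without UWKOS1 (ATP2B4) and 2 without UWKOS3 (CENPP and SLC6A8). KERA (keratocan), the family relative next to LUM, differed by -0.71, with means of 5.61 and 6.32 (limma adjusted p = 0.0426 without the dim limit), and EPYC (epiphycan), beyond it, by 0.07. OPTC (opticin), next to PRELP, differed by -0.83 with overlapping groups. The family relatives NYX (-0.23) and PODNL1 (-0.20) were tested and did not pass, and CHAD (-0.40) and TSKU (-0.14) were dim.

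Genes that build, cut or bind these proteins were counted in lists written from general knowledge, with earlier results of these data known. Over all genes, each by its brightest tested probe set, limma called 7.30% higher and 4.52% lower. Of 72 tested genes in 6 lists, it called 2 higher and 7 lower (63 not called), and the median difference was -0.30 against 0.03 over all tested genes. None of the 9 passed without UWKOS6, where 51 of 21462 probe sets were called in all, nor without both UWKOS6 and UWKOS8 or with the GAPDH ratio as a covariate. Without UWKOS8 the lists held 3 calls and without UWKOS7 15. Of the 9, ADAMTS5 had its tumorigenic mean and CHST11 and SRGN their non-tumorigenic mean under the dim limit, so these 3 were tested through the group in which they were high and the sizes of their differences are uncertain.

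Among enzymes that make glycosaminoglycan chains, 25 were tested; limma called 1 higher and 2 lower, and the median difference was -0.29. DSE, the epimerase that turns chondroitin into dermatan sulfate, read 8.47, 4.55 and 7.13 in UWKOS1, UWKOS3 and UWKOS7 and 10.86, 10.15 and 10.49 in UWKOS2, UWKOS6 and UWKOS8. It fell by 3.79 (SE 0.93, limma adjusted p = 0.0477), and its other probe set fell by 1.96. UST, which adds sulfate to the uronic acid of these chains, fell by 1.64 (SE 0.26, limma adjusted p = 0.0208) on its brightest probe set, while the other 3 differed by -0.80 (called), -0.65 and -0.33, and the mean of all by -0.86. CHST11, a chondroitin sulfotransferase, rose by 1.67 (SE 0.41, limma adjusted p = 0.0482), and PAPSS2, which makes the sulfate donor, differed by -0.60 (limma adjusted p = 0.0529) and passed without the dim limit, with an intensity trend and with array weights. DSE also missed the threshold without UWKOS2, UWKOS7 or UWKOS8, UST without UWKOS8, and CHST11 without UWKOS1, UWKOS2, UWKOS7 or UWKOS8; DSE and CHST11 missed it without the dim limit as well, and CHST11 with 75th percentile centring or robust variances. The relative DSEL differed by -0.05 and the sulfotransferase CHST14 by 0.16, neither past the threshold.

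Among proteases known to act on small proteoglycans, 5 were tested and 3 fell. MMP2, a gelatinase, read 6.42, 7.17 and 8.28 in UWKOS1, UWKOS3 and UWKOS7 and 12.31, 11.18 and 11.44 in UWKOS2, UWKOS6 and UWKOS8, and fell by 4.35 (SE 0.52, limma adjusted p = 0.0139). The aggrecanase ADAMTS5 fell by 3.26 (SE 0.37, limma adjusted p = 0.0131) and the membrane-bound MMP14 by 1.48 (SE 0.36, limma adjusted p = 0.0465). BMP1, which trims the propeptides of DCN and BGN, differed by -1.27 (limma adjusted p = 0.183) and passed without UWKOS7. MMP14 missed the threshold without UWKOS1, UWKOS2, UWKOS7 or UWKOS8, and without the dim limit. In that last fit MMP3, a stromelysin below the limit, rose by 2.64 (limma adjusted p = 0.0301). The median of the 5 was -1.48 and became -0.06 over the 10 measured genes without the limit.

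Collagens and other fibril partners were lower on average in 10 of 11 tested genes, with a median of -0.93, but 0 passed in limma. An unadjusted p under 0.05 was found for 6 of the 11, against 31.5% of all genes tested. COL6A1 differed by -1.51 (limma adjusted p = 0.0503) and passed in 6 alternatives or fits with a line left out. COL1A2 differed by -0.93 (limma adjusted p = 0.0706), FN1 (fibronectin) by -1.92 (limma adjusted p = 0.0790) and the cross-linking enzyme LOX by 0.66 (limma adjusted p = 0.0837). Dimmer probe sets of COL1A2 (-1.67), FN1 (-2.12) and COL3A1 (-1.80) passed. COL1A2 passed with array weights, without UWKOS7 and on the mean of its probe sets, FN1 with array weights and without UWKOS1, and LOX with array weights. Without UWKOS7, 5 collagen genes passed.

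Among 15 tested growth factors and receptors bound by the family, limma called 1 lower (6.67%) and 0 higher, and the median difference was -0.07. The gene that fell was LRP1, the endocytic receptor that takes up decorin. It read 6.72, 6.18 and 7.71 in UWKOS1, UWKOS3 and UWKOS7 and 9.21, 9.82 and 9.73 in UWKOS2, UWKOS6 and UWKOS8, a fall of 2.72 (SE 0.41, limma adjusted p = 0.0194) that missed the threshold without UWKOS8, with a difference of -1.64 on the mean of its probe sets. KDR differed by 1.11 (limma adjusted p = 0.0905), TGFBR2 by -0.71 (limma adjusted p = 0.183), BMP4 by 1.60 (limma adjusted p = 0.196; 2.51 and called without UWKOS8, 2.80 with the GAPDH covariate) and TGFB1 by -0.31 (limma adjusted p = 0.473). Among 14 tested core proteins of other proteoglycans, SDC2, a syndecan, fell by 1.71 (limma adjusted p = 0.0431) and SRGN, serglycin, rose by 2.06 (limma adjusted p = 0.0372), while 12 did not pass. The share called was 7.14% in each direction. VCAN (versican) differed by -1.91 (limma adjusted p = 0.113), or -1.08 without UWKOS3. HSPG2 (perlecan), to which PRELP binds, differed by -1.39 (limma adjusted p = 0.0997). It passed without UWKOS7 (-1.90) and was at -0.71 on the mean of its probe sets. SDC2 missed the threshold without UWKOS1, UWKOS2 or UWKOS8, SRGN without UWKOS1, UWKOS2, UWKOS3 or UWKOS8, and both without the dim limit.

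**Figure D4:**
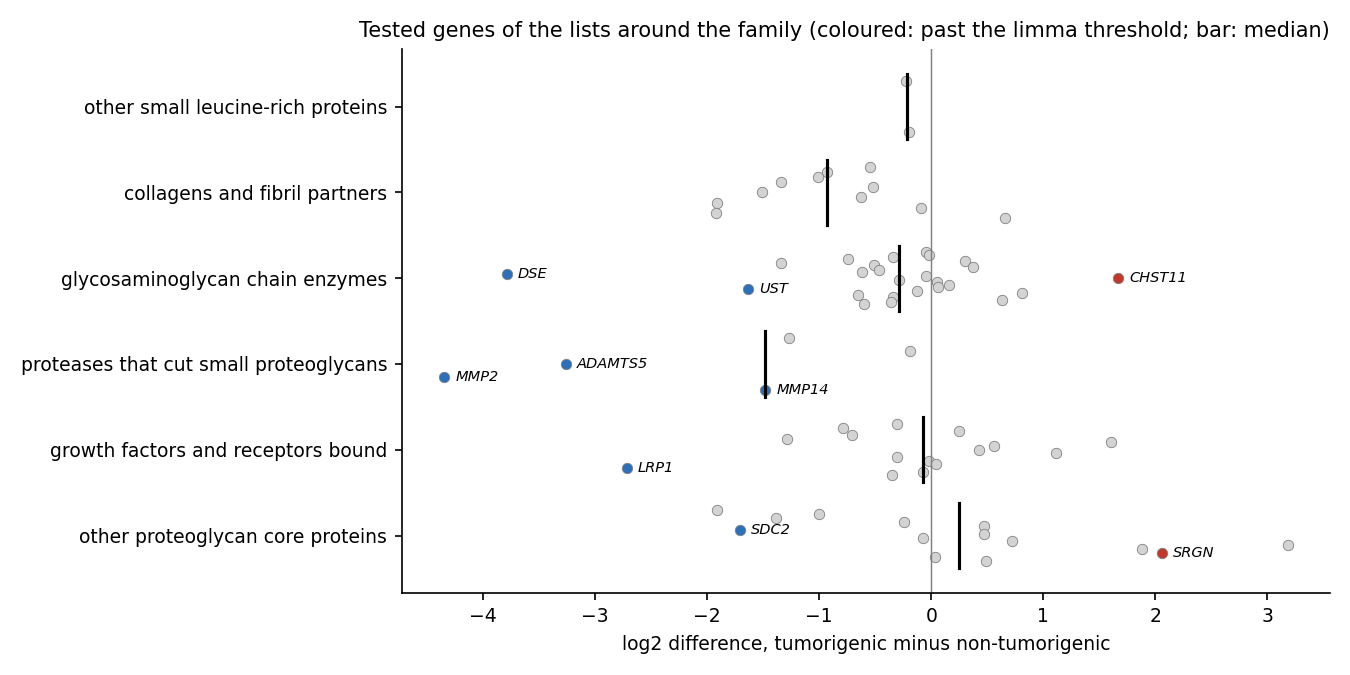
Difference between tumorigenic and non-tumorigenic lines on the log2 scale (x axis) for each tested gene of the 6 lists (y axis); coloured and named points passed the limma threshold (blue lower, red higher), grey points did not, and black bars mark list medians. The protease list has its median at -1.48 and the list of other core proteins at 0.25.

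Markers of other cell types were compared in the same way. Of 14 measured fibroblast and mesenchymal markers 13 were lower on average in the tumorigenic lines, though TCF21, VIM and NT5E by under 0.1, and their mean was 8.60, 9.27 and 8.04 in UWKOS1, UWKOS3 and UWKOS7 and 9.78 to 10.23 in the other lines. Among the tumorigenic lines this mean was highest in UWKOS3 and lowest in UWKOS7, the reverse of the mean of the ASPN run. The marker DPT weighs on that order, at 12.13 in UWKOS3 against 4.16 in UWKOS1 and 4.51 in UWKOS7. As the order of lines has no error of its own, nothing is read from it. Of the 12 tested, 0 passed in limma, and COL3A1, COL6A1 and FN1 stand in the collagen list too. Of 8 measured smooth muscle and myofibroblast markers 7 were lower, with a mean of 7.42 to 10.29 against 10.73 to 11.15, and of 7 tested ACTG2 (by 3.19) and TPM2 fell in limma. The means of the osteoblast (7.37 to 7.61 and 7.47 to 7.71), tendon (5.42 to 5.73 and 5.58 to 5.78), endothelial (6.09 to 6.13 and 6.01 to 6.14) and adipocyte lists (5.18 to 6.64 and 5.06 to 5.48) overlapped between the groups. Of 2 tested adipocyte markers, FABP4 rose by 2.06 (limma adjusted p = 0.0465). Its non-tumorigenic mean of 5.08 lay under the dim limit, and it missed the threshold without that limit. Cartilage markers averaged 5.64 to 5.97 and 5.80 to 7.56, macrophage markers 5.90 to 6.44 and 6.73 to 6.90, and epithelial markers 4.07 to 6.41 and 3.93 to 4.13. The macrophage means differed mainly through CTSK (means of 10.17 and 13.27) and CD68 (6.34 and 7.41), neither called. The rest of that list differed by -0.18 (ACP5) to 0.04 (CD14). The fibroblast markers PDGFRB and TCF21 and the smooth muscle marker MYH11 lay below the dim limit. The tendon marker TNMD, the endothelial markers PECAM1 and VWF and the leukocyte marker PTPRC did as well. The part of these cell identities in the family's values was not tested. UWKOS2, whose transcript-end ratios lay among those of the tumorigenic lines, had ASPN at 11.81, OMD at 9.58, ECM2 at 9.62 and OGN at 12.37. It had DCN at 14.62, LUM at 14.03, BGN at 12.59, FMOD at 7.37 and PRELP at 6.18. These are values of 1 line, and the part of RNA integrity in the family's values was not tested.

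Likeness to ASPN was measured as the root mean square difference over the 6 lines after subtracting each gene's mean, among 9138 genes outside the family. The 5 closest were the growth factor FGF7 (0.47), the sodium pump regulator FXYD1 (0.79), the formin FMN2 (1.02), the thrombospondin THBS2 (1.20) and the matricellular protein CCN3 (1.22). FGF7 read 4.40, 3.18 and 3.58 in UWKOS1, UWKOS3 and UWKOS7 and 9.83, 10.88 and 10.49 in UWKOS2, UWKOS6 and UWKOS8. OMD, the nearest family member, was at 1.44, ECM2 at 2.03 and OGN at 2.59 from ASPN. The 5 were picked as the closest of 9138 genes and the run genes were not, so nothing is read from which are closer. For DCN the closest were GLT1D1 (0.23), LEPROT (0.25), HSPG2 (0.25), PIGS (0.26) and the small heat shock protein HSPB2 (0.28). HSPG2 read 9.21, 9.68 and 10.95 in the tumorigenic lines and 11.54, 11.62 and 10.85 in the others, with UWKOS7 above UWKOS8 as for DCN. LUM, next to DCN in the genome, was at 1.30 from it. This measure depends on the size of a gene's spread as well as on its shape.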

How the data were processed

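Total RNA from 6 lines was labelled and hybridised to Affymetrix canine arrays, 1 per line, per the labels' protocols. The deposited table holds log2 values. The submitters' processing notes list MAS5 without a version, and whether it made these values is not settled here. Values were used as deposited, between 1.97 and 14.83, without detection calls.

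Of 43035 probe sets 111 controls were left out. Of the rest 29254 had 1 gene symbol, 439 several and others none here; RefSeq gene identifiers gave current names for 27680 of them. Groups were compared with limma 3.58.1 (R 4.3.3; lmFit, eBayes, no covariate), Benjamini-Hochberg adjustment over all 21462 tested probe sets and a threshold of 0.05, a fit checked on simulated data. A gene outside the family is taken by its brightest probe set. Members, lists and flanks (the 6 nearest protein-coding genes on each side) were chosen with earlier results of these data known. Named are all members, up to 4 genes per list by smallest p, the flanks of the ASPN run, and the 5 genes most like ASPN and DCN; other genes named were chosen after their values were seen. Alternatives were the dim limit, array scaling, variance model, array weights, the GAPDH ratio as covariate, lines left out and probe set means. Replicate numbers follow accession order and pair nothing. Figures used matplotlib 3.10.9.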

Additional observations from a re-analysis of the deposited data

How the results depend on the processing

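All 157 recomputed differences of the family's probe sets stayed below 0 and moved by less than the spread between lines. This was largely fixed in advance. Where the groups do not overlap, as in 13 of the 15 probe sets, leaving out lines cannot change the sign. The dim limit, intensity trend and robust variances leave each difference as it is. The number of family probe sets called was 4; it was 8 without the dim limit (15 tested), 2 with an upper-quartile limit (6 tested), 1 with the GAPDH ratio as a covariate and 0 without both UWKOS6 and UWKOS8, and 1 to 6 with a single line left out. The fit without both rests on UWKOS2 alone for its group, and takes its spread from the tumorigenic lines. Calls over all tested probe sets numbered 2580 of 21462 in the main fit and 2169 of 42924 without the dim limit. They were 1856 of 10731 with the upper-quartile limit, 27 of 21462 with the GAPDH covariate and 51 to 3130 with a single line left out. The gap between the ASPN run and the other members, -2.94, was -3.52 to -2.37 with a line left out and -2.96, -2.94, -3.03, -3.26 and -2.88 with quantile normalization, 75th percentile centring, the GAPDH covariate, both lines left out and probe set means. The dim limit and variance models leave it as it is by construction, and array weights were not run for it. Calls in the 6 lists numbered 9; they were 14 with array weights, 0 with the GAPDH covariate, 0 without both UWKOS6 and UWKOS8, and 0 to 15 with a line left out. Calls among flanking genes numbered 0; they were 1 without the dim limit, 1 with the upper-quartile limit and 0 to 2 with a line left out. The IARS1 difference of -0.78 turned to 0.10 with probe set means. Differences nearer 0 that changed sign were those of BCAP31 (-0.01; 0.06 with the GAPDH covariate, 0.18 with probe set means, -0.22 to 0.22 with a line left out), NUDT4 (-0.01 with the GAPDH covariate), CCNQ (-0.04 without UWKOS3, 0.39 without UWKOS7) and ZC3H11A (-0.15 without UWKOS1, 0.45 without UWKOS3). The causes were not tested. No paired analysis was possible because the labels give the lines no shared replicate numbers. Signals under the dim limit may be background, which bounds what the differences of ASPN, OMD, ECM2, FMOD and PRELP can show.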

Other observations

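Some matrix and lineage genes set single lines apart, and they were picked out with their values in view. DPT (dermatopontin), a matrix protein that binds decorin, read 4.16 in UWKOS1 and 4.51 in UWKOS7 but 12.13 in UWKOS3, within the 11.18 to 12.93 of the non-tumorigenic lines. UWKOS3 was nonetheless the lowest line for ASPN, OMD, ECM2 and BGN. The cartilage matrix protein COMP read 13.71 in UWKOS6 and 14.64 in UWKOS8 but 8.08 in UWKOS2, and the cartilage proteoglycan ACAN read 9.56 in UWKOS8 and 5.08 to 5.99 in the other lines. The bone protein SPP1 (osteopontin) read 9.76 in UWKOS1 and 2.79 to 3.30 elsewhere. The actin of smooth muscle, ACTA2, read 3.83 in UWKOS3 and 11.44 to 14.30 in the other lines. The epithelial markers KRT8 (6.49 in UWKOS1, 6.64 in UWKOS3) and EPCAM (7.65 in UWKOS1) exceeded 6 in those lines, whereas KRT8 read 2.69 to 3.04 in the other 4.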
